A study of Mus musculus with 24 samples.

Results

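A set of 10 genes that mark epithelial and mesothelial cells was followed through cultured mouse pancreatic stellate cells (PSC), out of 53801 genes listed in the expression tables. The set held the simple-epithelial keratins Krt7, Krt8, Krt18 and Krt19, the epithelial adhesion molecules Epcam and Cdh1, and Msln, Upk3b, Lrrn4 and Wt1, which mark the mesothelium. The genes were chosen by name, on the basis of FPKM values in these same libraries (fragment counts scaled to transcript length and to the library's mapped fragments), so their levels and differences are given as a description, with no p-value.

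The study compared 2 ways of growing PSC with KPC cells, a pancreatic cancer line, across a porous membrane. All PSC came from wild-type C57BL/6J mice of 7 to 10 weeks, with 4 to 10 pancreata pooled per isolation, and they were the only cells from which RNA was prepared. The KPC cells were 1 line, derived from a mouse in which p48-Cre, active in the pancreatic epithelium, switched on mutant Trp53. In the standard model the KPC cells grew on the floor of the well, below a culture insert that held the PSC. In the inverse model the KPC cells had been seeded on the underside of the very membrane that carried the PSC on its upper side, with pores of 1 µm between them. The controls were PSC alone on the same inserts, without KPC cells. Each model was sampled after 24 h and 72 h, with 3 co-culture and 3 control libraries at each time, giving 8 groups and 24 libraries. In the inverse model the cells could share the membrane for up to 96 h. PSC were taken off the insert by trypsin, and the RNA input was 450 ng in the standard and 120 ng in the inverse model, so model and RNA input cannot be told apart. No library of KPC cells alone was used here.

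Keratins are the intermediate filament proteins of epithelial cells. They assemble as pairs of a type II keratin (Krt7, Krt8) with a type I keratin (Krt18, Krt19), and Krt8 with Krt18 is the basic pair of simple epithelia. Pancreatic ducts and ductal carcinoma carry Krt7 and Krt19 as well, together with E-cadherin (Cdh1) and Epcam at cell contacts. The mesothelium, the lining of the abdominal organs, also makes simple-epithelial keratins, together with mesothelin (Msln), Upk3b, Lrrn4 and the transcription factor Wt1. Fibroblasts and stellate cells are mesenchymal: they rest on vimentin and on transcription factors of the SNAI, ZEB and TWIST families, several of which bind the E-box CACCTG and repress Cdh1.

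Krt8 and Krt18 are neighbours on mouse chromosome 15. In GRCm38 with the GENCODE M21 annotation, Krt8 lies at chr15:101996698-102004482 on the minus strand and Krt18 at chr15:102028180-102032027 on the plus strand, with 23697 bases and 0 annotated genes between them. Krt7 is also on this chromosome, at chr15:101411043-101430313. Krt19 lies at chr11:100140810-100148665, Epcam at chr17:87635979-87651129, Cdh1 at chr8:106603351-106670246 and Msln at chr17:25748613-25754378. Upk3b lies at chr5:136038496-136046487, Lrrn4 at chr2:132868305-132880891 and Wt1 at chr2:105126529-105173616. Reads were counted without regard to strand, so Krt7 shares its locus with the antisense gene Gm671, which was listed at no more than 0.0684 FPKM.

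RefSeq promoters (GRCm38.p6, 250 bases before to 50 bases after the start) were found for 6 of the 10 genes: Krt7, Krt8, Krt18, Epcam, Upk3b and Lrrn4. The E-box CACCTG, searched on both strands, stood in 4 of these 6 promoters and in 20.2% of 32851 RefSeq promoters. The Krt7, Krt8, Krt18 and Epcam promoters held it, and those of Upk3b and Lrrn4 did not. The windows of Krt7, Krt18 and Epcam are printed because the factors that bind this E-box were expressed throughout, and that of Krt8 is not printed. Each line gives the gene and 12 bases on either side of the motif, in the direction of transcription, with the E-box in capitals (CAGGTG where it is read on the other strand).
Krt7: ccgccctgtcccCACCTGtgtgcgctcagc
Krt18: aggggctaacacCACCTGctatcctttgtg
Epcam: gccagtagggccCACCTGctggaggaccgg
Epcam: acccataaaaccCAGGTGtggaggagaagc
These windows lie at chr15:101412347-101412376 (Krt7, plus strand), chr15:102027990-102028019 (Krt18, plus strand), chr17:87635780-87635809 and chr17:87635948-87635977 (Epcam, plus strand). The Krt7 window falls in an exon of the GENCODE annotation, and the others lie upstream of the gene. The AP-1 motif TGANTCA was in 0 of the 6 promoters and in 7.81% of all, and the TATA motif TATAAA was in 1 of 6 and in 13.6% of all. A match of letters is not evidence of binding.

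The libraries held 15932737 to 24798761 recovered fragments. The label of stellate cells was checked against markers first. Col1a1, the main fibrillar collagen, reached 4918 to 10708 FPKM, vimentin (Vim) 706 to 1994, desmin (Des) 26.2 to 87.8 and smooth muscle actin (Acta2) 476 to 5963. The RNA of markers of quiescent stellate cells was near absent: Gfap was at 0 to 0.237 FPKM, with 12 libraries at 0, and Lrat at 0 to 0.0306, with 21 libraries at 0. The paper, by contrast, reports that its PSC stained for GFAP protein and held lipid droplets. The 4 standard libraries of replicate 1 stood apart from those of replicates 2 and 3, with the highest Acta2 and the lowest Wt1 of each standard group. In bulk RNA, fewer cells of a type and less RNA per cell cannot be told apart.

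**Figure D1:**
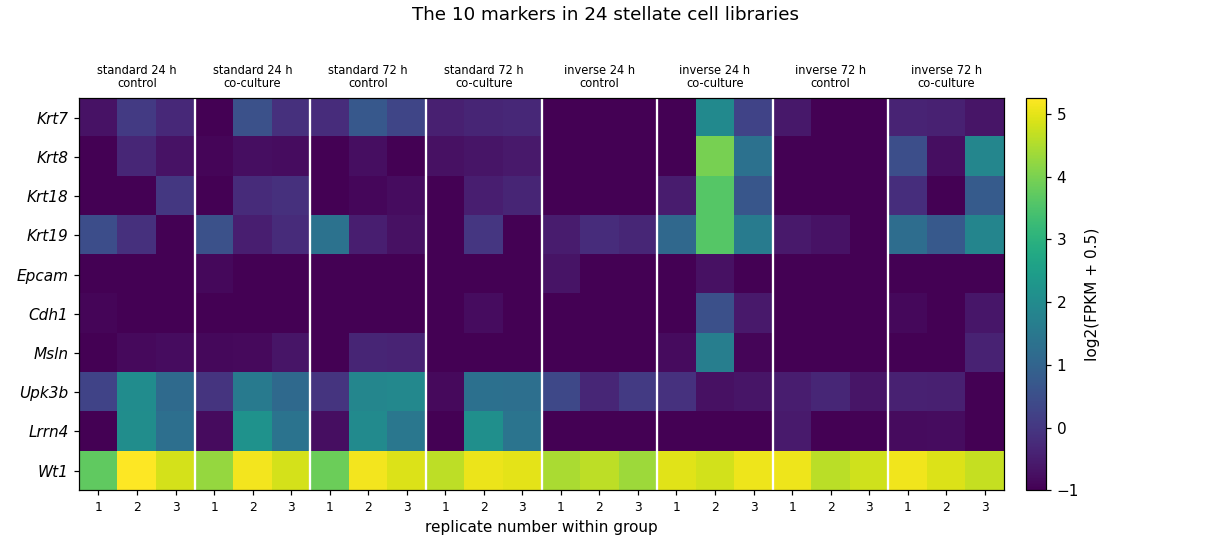
The heatmap shows log2(FPKM + 0.5) of the 10 markers (rows) in the 24 libraries (columns, by group and replicate number). The inverse 24 h co-culture of replicate 2 carries the brightest keratin rows, the mesothelial rows Upk3b and Lrrn4 are bright in standard replicates 2 and 3, and Wt1 is high in every library.

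Keratins were near absent from inverse controls and present in inverse co-cultures. The FPKM of the 4 keratins together came to between 0 and 0.370 in the 6 inverse control libraries. It came to 1.84, 41.9 and 6.31 in the inverse co-cultures of 24 h and to 3.40, 1.5 and 7.62 in those of 72 h. All 6 inverse co-cultures therefore stood above all 6 inverse controls. In the 12 standard libraries the sum was between 0.334 and 2.41 FPKM, and co-cultures and controls overlapped at both times.

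Krt8 had 0 fragments in all 6 inverse controls. In the inverse co-cultures of 24 h it was at 0, 15.2 and 2.00 FPKM in replicates 1, 2 and 3, which are 0, 683 and 63 fragments. At 72 h it was at 0.919, 0.0880 and 3.14 FPKM. The group mean was 5.74 ± 8.27 FPKM (SD, n = 3) for 24 h, and for 72 h it was 1.38 ± 1.58, so the SD exceeded the mean in both groups. Against the limit that 3 fragments over the control group set, these means were at least 216-fold higher at 24 h and at least 58.3-fold higher at 72 h. Replicate 2 held 88.4% of the 24 h group sum, and without it the mean was 0.999 FPKM, at least 37.6-fold above that limit. As log2(FPKM + 0.5), where the added constant shrinks differences between low values, co-culture minus control was 2.43 ± 1.11 (SE) for 24 h and 1.53 ± 0.61 for 72 h. After 24 h the groups overlapped, since replicate 1 was at 0 as the controls were, and after 72 h they did not.

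Krt18, the partner of Krt8, was likewise at 0 fragments in all 6 inverse controls. Its inverse co-culture values were 0.192, 11.7 and 1.08 FPKM at 24 h and 0.383, 0 and 1.23 FPKM at 72 h. The groups did not overlap at 24 h, and they overlapped at 72 h through replicate 2. The mean at 24 h was 4.32 ± 6.40 FPKM, at least 119-fold above the control limit, and 0.636 FPKM, at least 17.6-fold above it, without replicate 2. The log2 difference was 2.25 ± 0.96 at 24 h and 0.87 ± 0.42 at 72 h.

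The study stained PSC grown without KPC cells for CK19, the Krt19 protein, as an epithelial marker and saw no staining. Krt19, the keratin of pancreatic ducts, was the keratin found in every inverse co-culture. It was at 1.64, 11.6 and 2.53 FPKM at 24 h, against 0.192, 0.370 and 0.301 in the controls. At 72 h it was at 1.83, 1.17 and 3.11 FPKM, against 0.176, 0.116 and 0 in the controls. The groups did not overlap at either time. The mean was 5.26 ± 5.52 FPKM in co-cultures and 0.288 ± 0.0897 in controls at 24 h, an 18.3-fold ratio that was 7.26-fold without replicate 2. At 72 h the means were 2.04 ± 0.985 and 0.0974 ± 0.0896 FPKM, a 20.9-fold ratio. The log2 differences were 2.45 ± 0.57 and 2.03 ± 0.40. These values rest on few fragments outside replicate 2: 35, 261 and 40 at 24 h and 36, 20 and 57 at 72 h, against 0 to 9 in the controls. In the standard model Krt19 was at 0.975, 0.218 and 0.349 FPKM in 24 h co-cultures and 0.896, 0.406 and 0 in their controls. At 72 h it was at 0, 0.493 and 0 in standard co-cultures and 2.05, 0.222 and 0.108 in controls, and the groups overlapped at both times.

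All 4 keratins had a low level in the standard libraries. Krt7 had fragments in 11 of these 12 libraries, at a median of 0.344 FPKM. Krt19 had them in 9, at a median of 0.285 FPKM, Krt8 in 9 and Krt18 in 7. In the inverse co-cultures Krt7 was at 0, 3.41 and 0.698 FPKM at 24 h and 0.268, 0.246 and 0.143 at 72 h. In the inverse controls it was at 0 in 5 of 6 libraries and at 0.162 FPKM, 7 fragments, in replicate 1 of 72 h. Both inverse comparisons overlapped, with log2 differences of 1.41 ± 0.67 at 24 h and a 4.05-fold ratio of means at 72 h. In the standard model Krt7 was at 0, 0.962 and 0.418 FPKM in 24 h co-cultures and 0.118, 0.548 and 0.328 in their controls. At 72 h all 3 standard co-cultures (0.226, 0.288 and 0.304) lay below all 3 controls (0.359, 1.14 and 0.736). These are 8 to 10 fragments against 15 to 39. For Krt8 the order at 72 h in the standard model was the opposite, with co-cultures at 0.108 to 0.174 FPKM and controls at 0 to 0.0835. That order rests on 4 to 6 fragments against 0 to 3. No share of non-overlapping groups over all genes was counted in the standard model, so nothing is read from either order.

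**Figure D2:**
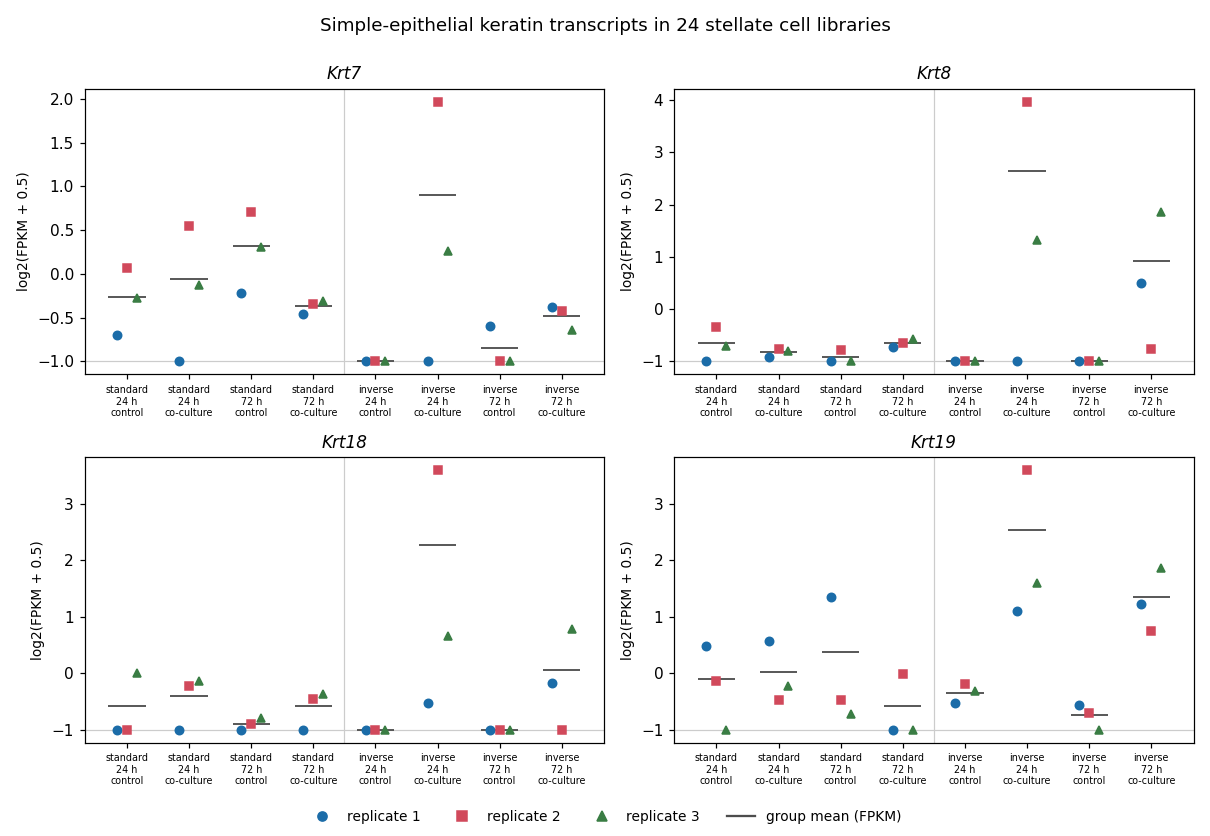
Each panel shows log2(FPKM + 0.5) of a keratin in the 8 groups of 3 libraries, with a symbol per replicate number and a line at the group mean of FPKM. Krt8, Krt18 and Krt19 lie highest in the inverse co-cultures of 24 h, with replicate 2 far above the other libraries.

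Ordered by group mean, the inverse co-culture of 24 h was first and that of 72 h second for Krt8, Krt18, Krt19 and Cdh1. Each group overlapped with the next in this order, for every keratin, so no step between neighbouring groups exceeded the spread of the libraries. The keratin makeup also differed between libraries. In the 24 h inverse co-culture of replicate 2, Krt8 made up 36.3% of the summed keratin FPKM, Krt18 27.9%, Krt19 27.7% and Krt7 8.13%. In the 72 h inverse co-culture of replicate 3 the shares were 41.2%, 16.1%, 40.8% and 1.88%. In the 24 h inverse co-culture of replicate 1, which held 41 keratin fragments, Krt19 made up 89.5% and Krt8 0%. The ratio of Krt19 to Krt8 was 0.763 in replicate 2 and 1.27 in replicate 3 at 24 h, and 2.00, 13.3 and 0.989 in the 3 libraries of 72 h, the highest of these on 31 keratin fragments.

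**Figure D3:**
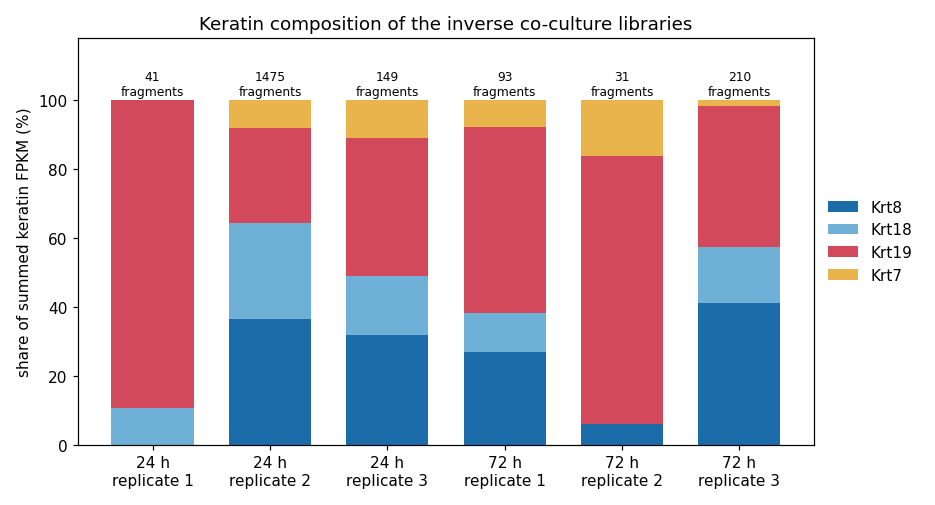
The bars give the share of each keratin in the summed FPKM of Krt7, Krt8, Krt18 and Krt19, in percent, for the 6 inverse co-culture libraries. Krt8 makes up 36.3% in replicate 2 of 24 h and 41.2% in replicate 3 of 72 h, and Krt19 makes up 89.5% in replicate 1 of 24 h.

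The adhesion molecules were scarcer than the keratins. Cdh1 had 0 fragments in all 6 inverse controls and was at 0, 0.948 and 0.177 FPKM in the 24 h inverse co-cultures, which are 0, 61 and 8 fragments. At 72 h it was at 0.0534, 0 and 0.152 FPKM. The mean at 24 h was 0.375 ± 0.504 FPKM, at least 20.2-fold above the control limit, and at least 4.77-fold above it without replicate 2. Its log2 difference was 0.66 ± 0.36 at 24 h and 0.18 at 72 h, and the groups overlapped at both times. Epcam, a surface marker of most carcinomas, was found in 3 of 24 libraries. It had 5 fragments (0.107 FPKM) in the 24 h inverse co-culture of replicate 2, 4 fragments in a 24 h inverse control and 2 in a standard co-culture. Epcam had too few fragments to say whether it moved with the keratins: the library with 1475 keratin fragments held 5 of Epcam, and a control library without KPC cells held 4.

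The mesothelial genes fell into 3 patterns. Msln, a surface protein of mesothelium that many pancreatic carcinomas also carry, was highest in the library with the most keratin. It was at 0 in all 6 inverse controls and at 0.0654, 2.66 and 0.0294 FPKM in the 24 h inverse co-cultures, which are 3, 129 and 1 fragments. Replicate 2 held 96.6% of the group sum. The mean was 0.919 ± 1.51 FPKM, and 0.0474 FPKM without replicate 2, on 4 fragments. At 72 h Msln was at 0.253 FPKM, 10 fragments, in replicate 3 and at 0 in the other 2 inverse co-cultures. In the standard libraries it did not exceed 0.284 FPKM. At 72 h it was at 0 in all 3 standard co-cultures and at 0, 0.284 and 0.275 FPKM in their controls.

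Upk3b and Lrrn4 divided by the replicate number of the standard model. Upk3b, a uroplakin of the mesothelial surface, was at 0.0598 to 0.698 FPKM in the 4 standard libraries of replicate 1, at 1.97 to 3.60 in those of replicate 2 and at 1.69 to 3.27 in those of replicate 3. Lrrn4, a leucine-rich repeat membrane protein, was at 0 to 0.0843, 3.45 to 4.07 and 1.93 to 2.26 FPKM in the same order. Replicates 2 and 3 of the standard model thus lay above replicate 1 for both genes, in every group. In the 12 inverse libraries Upk3b was at 0 to 0.782 FPKM and Lrrn4 at 0 to 0.186. The 24 h inverse co-culture of replicate 2, with the most keratin, held 0.111 FPKM of Upk3b and 0 of Lrrn4. Within same-numbered pairs of the standard model, Upk3b was lower in the co-culture than in its control in 6 of 6, and Lrrn4 was higher in 4 of 6. In the blocked fit, the co-culture minus control log2 difference of Upk3b was −0.27 ± 0.23 (SE) for 24 h and −0.66 ± 0.24 for 72 h, with errors of 0.61 and 0.79 without the block. For Lrrn4 it was 0.14 ± 0.24 and −0.06 ± 0.25, with errors of 1.05 and 1.02 without the block. In the inverse model at 24 h the difference of Upk3b was −0.52 ± 0.26.

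Other genes had the same division by replicate number. Upk1b, the uroplakin partner of Upk3b, was at 0 to 0.451 FPKM in standard replicate 1, 1.43 to 3.33 in replicate 2 and 0.967 to 2.75 in replicate 3, and at no more than 0.260 in the inverse libraries. Gpm6a was at 0 to 0.0656, 1.47 to 2.36 and 0.865 to 1.33 FPKM, and Cxcl13, a B-cell chemokine, at 0 to 0.234, 12.8 to 26.6 and 4.89 to 9.69. Markers of macrophages followed this division less cleanly: the summed FPKM of 10 macrophage genes was 41.7 to 90.3 in standard replicate 1, 436 to 1463 in replicate 2 and 66.4 to 197 in replicate 3. Acta2 ran the other way, at 1194 to 5963, 476 to 824 and 895 to 1509 FPKM. For both, replicates 1 and 3 overlapped across the groups. In the inverse libraries, where Lrrn4 was at most 0.186 FPKM, the macrophage sum was 27.1 to 273 and Acta2 was at 563 to 2922. The part of macrophages and of the state of the stellate cells in the levels of Upk3b and Lrrn4 was not tested.

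Wt1 was the only one of the 10 genes at a high level everywhere, at 12.7 to 37.5 FPKM. In the 24 h inverse co-cultures it was at 30.7, 27.8 and 33.6 FPKM, against 21.5, 24.0 and 19.6 in the controls, and the groups did not overlap. The means were 30.7 ± 2.92 and 21.7 ± 2.18 FPKM, a 1.41-fold ratio and a log2 difference of 0.49 ± 0.13. At 72 h the values were 34.3, 29.7 and 25.4 FPKM against 33.5, 23.7 and 27.1, with a log2 difference of 0.09 ± 0.16. In the standard model Wt1 was at 12.7 to 24.4 FPKM in replicate 1, 32.9 to 37.5 in replicate 2 and 28.1 to 31.2 in replicate 3, and its co-culture differences were 0.13 ± 0.43 at 24 h and 0.26 ± 0.34 at 72 h, or ± 0.14 and ± 0.20 with the block. Aldh1a2, which makes retinoic acid in mesothelium and in stellate cells, was at 123 to 315 FPKM in standard replicate 1 and at 333 to 610 elsewhere.

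**Figure D4:**
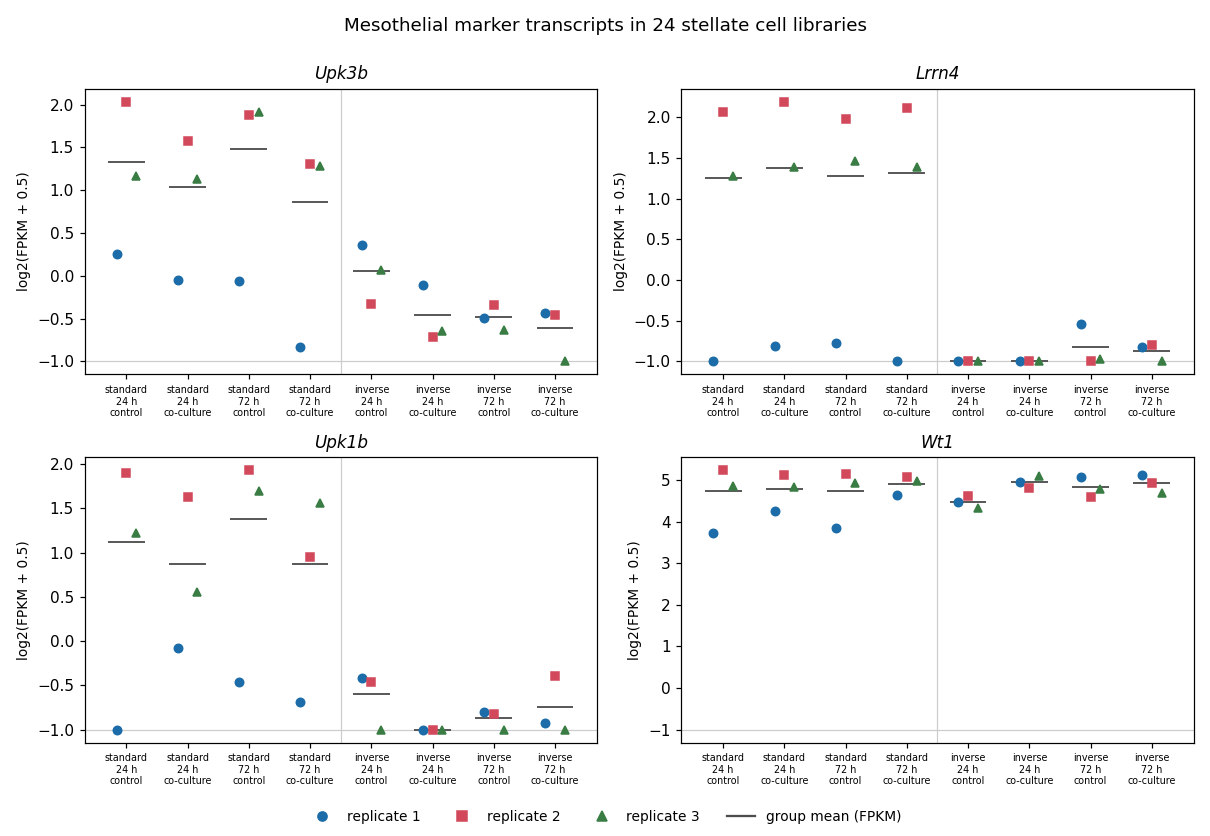
Each panel shows log2(FPKM + 0.5) of a mesothelial marker in the 8 groups of 3 libraries, with a symbol per replicate number and a line at the group mean of FPKM. Upk3b, Lrrn4 and Upk1b separate replicate 1 from replicates 2 and 3 in all 4 standard groups, and Wt1 is high in every library.

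The tests across all genes were made with limma, with the Benjamini-Hochberg method and a limit of 0.05, among genes above 1 FPKM in at least 3 of the libraries compared. In the standard model 0% of the genes tested passed at 24 h and 0% at 72 h, and 371 and 800 genes had an unadjusted p under 0.05. With the replicate number as a block, which pairs the samples in this model, 157 genes passed at 24 h and 1 at 72 h, and none of the 10 was among them. In the inverse model 2.47% of genes passed at 24 h and 12.8% at 72 h, and at 72 h 3.27% passed as higher with co-culture. At 72 h 427 genes were higher and 1251 lower, with a median log2 difference of −0.16 over all genes, and after median-ratio scaling 748 were higher and 679 lower, with a median of −0.005. Most of the 10 genes were too low to be tested: 3 passed the filter in the standard comparisons (Upk3b, Lrrn4 and Wt1) and 2 in the inverse ones (Krt19 and Wt1), Krt19 only through the co-culture libraries. Of the 10, the count of genes called was 1, Krt19 as higher in inverse co-culture at 72 h, and that call was lost when any 1 of the 6 libraries was left out. Co-culture and control libraries did not overlap, with co-culture higher, for 4 of the 10 at 24 h (Krt18, Krt19, Msln and Wt1), against 7.38% of all genes tested, and for 2 of the 10 at 72 h (Krt8 and Krt19), against 9.53%. Nothing is read from these counts, since the 10 genes were chosen on these values.

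The inverse minus standard difference of the co-culture effect passed for 0% of 14452 genes at 24 h and 0% at 72 h, with 182 and 501 genes at an unadjusted p under 0.05. For Krt8 this difference was 2.58 ± 1.10 at 24 h and 1.25 ± 1.10 at 72 h on the log2 scale, for Krt18 2.03 ± 0.96 and 0.58 ± 0.96, and for Krt19 2.28 ± 0.84 and 2.75 ± 0.84. Between controls of 72 h and 24 h, 0% of genes passed in the standard model, with 127 at an unadjusted p under 0.05, and 19.2% in the inverse model.

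Most other epithelial genes were absent or low. Of 35 other epithelial and carcinoma genes, 6 were at 0 in all 24 libraries: the epithelial transcription factors Grhl2, Ovol2 and Ehf, the desmosomal cadherin Dsg2, the tight junction protein Ocln and Agr2. In all, 24 of the 35, these 6 among them, never exceeded 1 FPKM. The 8 genes that could be tested had a median log2 difference of −0.19 at 24 h and −0.24 at 72 h in the inverse model, beside −0.06 and −0.16 over all genes. At 24 h 1 of the 8 rose, Lcn2, a secreted iron-carrier protein that fibroblasts also make under inflammation (1.35 ± 0.29, adjusted p = 0.0485), a call lost without any 1 of the 6 libraries other than the control of replicate 3. At 72 h Esrp2, a splicing regulator of epithelia, rose (1.5 ± 0.23, adjusted p = 0.00931), and it passed without each library in turn. The laminin chain Lamb3 fell by 1.99 ± 0.37 (adjusted p = 0.0163) and the transcription factor Grhl1 by 1.31 ± 0.33 (adjusted p = 0.0394). The Lamb3 call was lost without any 1 of the 3 controls, and the Grhl1 call without any 1 library other than the co-culture of replicate 2 and with median-ratio scaling (adjusted p = 0.0548). Between inverse controls Lcn2 (2.26, adjusted p = 0.00502) and the mucin Muc1 (1.19, adjusted p = 0.0433) rose from 24 h to 72 h without KPC cells, Muc1 not without the 24 h control of replicate 1, 2 or 3 or the 72 h control of replicate 1. In the standard model 0 of 7 tested passed at 24 h and 0 of 8 at 72 h, as did 0% of all genes.

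The library richest in keratin was the 24 h inverse co-culture of replicate 2. In that library 3 of the 35 had their highest value. They were Tspan8, a tetraspanin of digestive carcinomas, at 1.46 FPKM (36 fragments, 0 in the other 23 libraries), the integrin Itgb4 at 0.943 FPKM and the desmosome protein Dsp at 0.132 FPKM. No share over all genes was counted beside this, so nothing is read from the count. The summed FPKM of the 35 genes in the group of that library was 22.2 to 29.2, against 17 to 23.8 in the controls. At 72 h the inverse order was the reverse, with 22.8 to 28.8 in co-cultures and 30.5 to 48.2 in controls. Lcn2 alone held much of this sum, at 6.65 to 13.5 FPKM in inverse co-cultures and 3.26 to 31.0 in inverse controls over both times. Pdx1, a transcription factor of pancreatic epithelium, was found in that library alone, at 0.283 FPKM (14 fragments). Ezr, the ezrin of epithelial microvilli, was at 9.47 FPKM there and at 1.67 to 3.99 in the other 11 inverse libraries, but it was at 6.26 to 10.7 in the 8 standard libraries of replicates 2 and 3, controls among them. The part of RNA from KPC cells in the keratin values was not tested.

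The partners of keratin filaments and the mesenchymal transcription factors were expressed in all libraries. Plectin (Plec), which links filaments of every kind, was at 20.4 to 70.2 FPKM and plakoglobin (Jup), shared by desmosomes and cadherin junctions, at 18.1 to 42.5. Jup fell by 0.62 ± 0.09 with inverse co-culture at 72 h (adjusted p = 0.00887), 1 of 5 partners tested, whose median was −0.24, and not without the control of replicate 3. It rose by 0.59 ± 0.13 between inverse controls (adjusted p = 0.0154), and not without the 24 h control of replicate 1 or 2. The 8 transcription factors of epithelial-mesenchymal transition all passed the filter, among them Snai1 at 43.8 to 171 FPKM, Zeb1 at 25.2 to 42.3, Zeb2 at 106 to 165, Twist1 at 21.8 to 44.4 and Prrx1 at 123 to 184. With co-culture 0 of the 8 passed in either model at either time, beside 0% of all genes in both standard comparisons and 2.47% and 12.8% in the inverse ones, so little can be read from this count. Between inverse controls, from 24 h to 72 h, Snai1 (−0.51, adjusted p = 0.00601) and Twist1 (−0.38, adjusted p = 0.0378) fell, and Tcf4 (0.43, adjusted p = 0.011) and Zeb2 (0.31, adjusted p = 0.0415) rose. The Twist1 and Zeb2 calls were lost without any 1 library other than the 24 h control of replicate 1, and that of Zeb2 with median-ratio scaling (adjusted p = 0.0811).

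Of 16 other mesothelial genes, 6 could be tested in the inverse model at 24 h and 7 at 72 h, and 8 and 9 in the standard model, and 0 passed with co-culture in any of the 4 comparisons, beside the same shares of all genes (0% in the standard model, 2.47% and 12.8% in the inverse model), so little can be read from this count either. Their medians in the inverse model were 0.09 at 24 h and −0.18 at 72 h. Calretinin (Calb2), a classical mesothelial marker, was at 0 in all libraries, podoplanin (Pdpn) was found at 1 fragment in all, and Muc16 did not exceed 0.0495 FPKM. Cldn15 rose between inverse controls by 1.39 ± 0.16 (adjusted p = 0.00193). Summed FPKM of the 16 genes was 493 to 528 in 24 h inverse co-cultures and 384 to 461 in their controls. At 72 h the sums overlapped, at 368 to 529 and 421 to 483. Aldh1a2 alone made up most of this sum, at 333 to 491 FPKM in inverse co-cultures and 354 to 434 in inverse controls over both times.

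Markers of other pancreatic cells gave no uniform sign. Cftr, the chloride channel of ducts, did not exceed 0.107 FPKM, while Sox9 was at 2.38 to 8.75 in every library. Slc4a4, a bicarbonate transporter of ducts, fell by 1.27 in the inverse model at 72 h (adjusted p = 0.0248), 1 of 2 duct genes tested, and not without the co-culture of replicate 1 or any 1 of the 3 controls. Among acinar genes Cela1 was at 5.78 to 19.96 FPKM, and the other 11 stayed at or below 0.965 FPKM, with Ptf1a, Amy2a5 and Cela3b at 0. Cela1 fell by 0.56 at 72 h (adjusted p = 0.0243), and not with median-ratio scaling (adjusted p = 0.066) or without replicate 1 of either group or the control of replicate 3. The hormone genes Ins2, Gcg and Iapp were at 0 in all libraries. The endothelial markers Pecam1 and Cdh5 did not exceed 0.207 and 0.244 FPKM, and 0 of 2 endothelial genes tested passed with inverse co-culture.

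Macrophage genes were lower in inverse co-cultures than in controls at 72 h, 7 of 9 tested, with a median log2 difference of −1.54. Of all 13066 genes tested, 1251 were lower. Cd14, a co-receptor for bacterial lipopolysaccharide, was lower by 1.88 (adjusted p = 0.0346) and Adgre1, the F4/80 antigen, by 1.75 (adjusted p = 0.0132). All 7 calls were lost without the co-culture of replicate 1, the control of replicate 1 or the control of replicate 3. The summed FPKM of the 10 macrophage genes was 57.9 to 88.5 in co-cultures and 139 to 273 in controls at 72 h, where the keratin sum was higher in co-cultures. At 24 h it was 27.1 to 93.1 in co-cultures and 79.1 to 91.9 in controls. Between inverse controls the same 7 of 9 tested rose from 24 h to 72 h, with a median of 1.16. Of these, Lyz2, C1qa and C1qb passed without each library in turn. The lower values at 72 h thus stand against controls that had risen. Among 14 stellate cell and fibroblast markers tested in the inverse model, 2 rose and 1 fell at 24 h, where Acta2 fell by 1.01 (adjusted p = 0.00514), and 1 rose and 2 fell at 72 h, where the matrix proteoglycan Lum fell by 1.59 (adjusted p = 0.00774). Both of these passed without each library in turn. The part of these cell types in the keratin values was not tested.

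Among other keratins, 50 genes were listed, 23 of them at 0 in all libraries, and 2 exceeded 1 FPKM in at least 3 libraries. Krt10, a keratin of differentiated epidermis, was at 0.405 to 2.60 FPKM. Krt23, an acidic keratin, was at 1.5 to 3.77 FPKM in the 6 inverse co-cultures and at 0.268 to 1.10 in the 6 inverse controls. It was at 1.2 to 2.81 FPKM in the 6 standard co-cultures and at 0.225 to 1.17 in the 6 standard controls. Krt23 thus stood higher in every co-culture than in every control of its own model, and it did not pass the test: the log2 difference was 1.33 ± 0.32 at 24 h (adjusted p = 0.0726) and 1.44 ± 0.40 at 72 h (adjusted p = 0.0523) in the inverse model, and 1.09 (adjusted p = 1) and 1.12 (adjusted p = 0.745) in the standard model. The other 48 keratins did not exceed 1.28 FPKM.

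The genes most alike in pattern were found by Pearson's correlation of log2(FPKM + 0.5) over all 24 libraries, among 14452 genes, as a description, with the libraries' shared conditions in it. Krt8 was nearest to Krt18 (0.94), Krt19 (0.80) and Itih2 (0.73). Krt18 was followed by Krt8, Krt19 (0.72) and Gm23264 (0.67), and Krt19 by Krt8, Wdr54 (0.73) and Krt18. Cdh1 was nearest to Krt18 (0.94), Krt8 (0.93) and Krt19 (0.78), and Msln to Krt18 (0.86), Krt8 (0.78) and Tyw1 (0.72). These values leaned on the 24 h inverse co-culture of replicate 2. Over the other 23 libraries Krt8 with Krt18 was 0.83, Krt8 with Krt19 0.62, Krt8 with Msln 0.27 and Krt7 with Krt8 0.21. Msln, on few fragments, was then at 0.35 with Krt18 and 0.06 with Krt19, beside 0.52 with Krt7, 0.43 with Lrrn4 and 0.42 with Upk3b.

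Krt7 was nearest to B3gnt3 (0.72), Krt18 (0.70) and Ezr (0.69) over all libraries. Without that library its correlation with Lrrn4 was 0.72, from 0.41, and with Upk3b 0.63, from 0.30. Upk3b was nearest to Upk1b (0.94), Gpm6a (0.93) and Lrrn4 (0.92), and Lrrn4 to Cxcl13 (0.99), Gpm6a (0.98) and Angptl7 (0.97). Wt1 was near to St6gal1 (0.95) and Scarb2 (0.94), neither of them another of the 10. Epcam, with 11 fragments in 3 libraries, gave Snord59a (0.83), Zfp213 (0.64) and Rps15a-ps5 (0.63), from too few fragments to read. Krt7, Krt8, Krt18, Krt19, Cdh1 and Msln were all highest in the 24 h inverse co-culture of replicate 2. Without that library Krt7 and Msln were each nearer to Lrrn4 and Upk3b than to Krt8. Upk3b and Lrrn4 divided by standard replicate number, Wt1 was high in every library, and Epcam was all but absent.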

How the data were processed

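RNA of PSC was sequenced as polyA libraries, aligned by the authors to GRCm38 with HISAT2 2.0.5 and counted with featureCounts 1.5.0-p3, which took no account of strand. The deposited values were FPKM per gene and library, and the authors' comparisons with DESeq2 1.20.0 were not used. Gene names were matched to GENCODE M21 for 53706 of 53801 genes. Whole fragments were recovered from FPKM and gene length for 94.3% of genes above 0 (tolerance 0.05), giving a median depth of 18860269 fragments. Fragments cover counting error only.

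Values were tested as log2(FPKM + 0.5) with limma 3.58.1 (R 4.3.3, trended variance), for genes above 1 FPKM in at least 3 of the libraries compared, in 8 comparisons, and p-values were adjusted over all genes tested. The limma steps were tested on simulated data. Libraries count as replicates by their labels, so p-values measure only the spread between these samples. Standard replicate numbers paired the samples: deviations of same-numbered libraries from their group means correlated at 0.55 to 0.82 (24 h), 0.48 to 0.60 (72 h) and 0.48 to 0.77 (controls over time). In the inverse model they did not (−0.17 to 0.04, −0.13 to 0.10 and −0.02 to 0.15).

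The 10 genes, the lists and the tests were chosen with earlier results of these data known. Named from each list were the genes called, up to 4 per comparison, the highest-expressed genes and defining markers at 0. Also named were other keratins above 1 FPKM in 3 libraries and the 3 genes most alike to each of the 10; some items are not reported here. Fold changes against controls at 0 use a limit of 3 fragments per group. Alternatives were other pseudocounts, no filter, a fit of all 24 libraries, median-ratio scaling, the replicate block, voom on recovered fragments, and leaving out each library. The comparison of controls over time shares its libraries with the co-culture comparisons.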

Additional observations from a re-analysis of the deposited data

How the results depend on the processing

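Of 394 member differences recomputed under the alternatives, 354 kept their sign and 378 moved by less than the spread between replicates. With no filter on low values, 50 genes passed in the inverse model at 24 h, 888 at 72 h and 1425 between inverse controls, and 2 and 5 for the effect differences at 24 h and 72 h. Fitted over all 24 libraries, 5 and 45 passed in the standard model, 12 and 940 in the inverse model and 236 between inverse controls. With the replicate block, 157 and 1 passed in the standard model, 88 and 902 in the inverse model, whose numbers do not pair, and 16 for the effect difference at 72 h. Krt19 no longer passed at 72 h with the block (0 of the 10), and 1 of the 10 passed at 24 h with a pseudocount of 0.1.

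Other epithelial genes called at 24 h in the inverse model were 0 with a pseudocount of 0.1, no filter, all 24 libraries or the block. At 72 h the block left 1. Between inverse controls they were 1 with no filter, the block or voom and 0 with all 24 libraries, where voom called 2 other mesothelial genes. Without 1 library each, genes called were 67 to 412 and 368 to 1637 in the inverse model, 1243 to 2369 between inverse controls and 0 to 1 for the effect difference at 24 h. Called members at 72 h were then 0 to 0, and other epithelial genes 0 to 1 at 24 h, 1 to 3 at 72 h and 1 to 2 between controls. Median-ratio scaling moved the split at 72 h from 427 higher and 1251 lower to 748 and 679. The causes were not tested. Depth limits Epcam, Cdh1 and Msln, which rest on few fragments.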

Other observations

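Some genes were found in 1 library and in no other, and these were counted after the keratin values were seen. With at least 10 fragments in 1 library and 0 in the other 23, the 24 h inverse co-culture of replicate 2 had 9 genes, and the other libraries had 0 to 6, with 14 libraries at 0. The 9 were Tspan8 (36 fragments), Fermt1 (33), an epithelial kindlin, Gimd1 (19), Arhgef38 (18), Gm48129 (17), Pdx1 (14), Aldh3a1 (13), Gm13006 (13) and Mir152 (13). Foxa2, a transcription factor of gut and pancreatic epithelium, had 44 fragments (1.32 FPKM) in this library, 2 to 3 fragments in each of 3 standard libraries of 72 h and 0 elsewhere. Foxa2 was in none of the gene lists and does not meet this rule, so nothing is read from it. Chga, from the endocrine list, was highest in the 24 h inverse co-culture of replicate 1, at 1.18 FPKM (28 fragments), where Krt8 was at 0.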
